A study of Mus musculus with 3 samples.

Results

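The genes of the cytosolic ribosome were examined as a set: 75 of the 17134 autosomal protein-coding genes with 3 or more exons in the mm9 annotation of GENCODE. Members were taken by name (Rpl or Rps with a number and at most 1 letter, Rplp0, Rplp1, Rplp2 and Rpsa), without use of any measured value. Of 80 gene records with such a name, 4 on chromosome X and 1 with fewer than 3 exons were left out by the rule. The set held 44 genes of the large subunit, the acidic stalk proteins included, and 31 of the small subunit. It also held 3 paralogs: Rpl3l, which is known from heart and skeletal muscle, Rpl39l, known from testis, and Rps27l.

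The ribosome is assembled from ribosomal RNA and about equal amounts of each ribosomal protein, and its protein genes are among the most strongly and evenly transcribed genes of proliferating cells. They are short, start in CpG-rich promoters with a pyrimidine tract at the start site, and many carry small nucleolar RNAs (snoRNAs) in their introns. Their abundant mRNAs have been copied back into the genome many times, which leaves intronless processed copies of the exons but not of the introns or the promoter.

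Genomic DNA of E14, a mouse embryonic stem cell (mESC) line, was sequenced with 3 methods in 1 library each. The cells of all libraries were grown in serum with the cytokine LIF and 2 kinase inhibitors, PD0325901 (against MEK) and CHIR99021 (against glycogen synthase kinase), so every level reported is from inhibitor-treated cells, and there was no contrast of treatment or genotype. TAPSβ reads 5-methylcytosine (5mC) after 5-hydroxymethylcytosine (5hmC) has been blocked, CAPS reads 5hmC, and PS reads 5-formylcytosine and 5-carboxylcytosine (5fC and 5caC); in each, a modified cytosine is sequenced as T. A level is the percentage of base calls at CpG cytosines read as modified, given with its 95% exact binomial interval where stated, and intervals and tests cover counting error only, since no method had a second library and calls at cytosines of the same read were taken as independent. Over the genome the levels were 57.5% in TAPSβ, 3.14% in CAPS and 0.246% in PS, at a median of 13, 9 and 9 reads per listed cytosine. At the promoters of 3 pluripotency genes the TAPSβ level was 0 of 1076 calls at Pou5f1, 0.324% at Zfp42 and 9.80% at Nanog.

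A promoter was taken as 500 bp on each side of the start of the gene record, the body as everything beyond 500 bp from that start up to the end of the record, exons as those of any protein-coding transcript and introns as the gaps between them, so that a body also holds the parts of a record outside these transcripts. Levels per gene and feature were read at 100 or more calls. The promoters of 4 members, Rpl3, Rps21 and Rps29 among them, had no call in any library, Rpl15 had 79 calls in TAPSβ, and these were not analysed here. Of all genes with a CpG in the promoter, 2.36% had a promoter with no listed cytosine. Listing within genes was uneven too, and Rps21 had no intron call.

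The sequence around the start shows what kind of promoter these genes have. RefSeq start sites of the GRCm38.p6 table could be placed on mm9 by an exact match of their sequence for 55 of the 75 genes. The following 230 bases run from 200 bases before the start to 30 from it, with CpG dinucleotides in capitals, for the 3 genes with the lowest and the 3 with the highest promoter TAPSβ level.
Rpl22 (chr4:151699635-151699864, plus strand): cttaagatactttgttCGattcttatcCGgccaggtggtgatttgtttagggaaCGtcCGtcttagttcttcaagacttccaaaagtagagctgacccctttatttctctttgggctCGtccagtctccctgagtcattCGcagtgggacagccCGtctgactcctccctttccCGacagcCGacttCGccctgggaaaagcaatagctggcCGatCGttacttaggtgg
Rps27 (chr3:90017541-90017770, minus strand): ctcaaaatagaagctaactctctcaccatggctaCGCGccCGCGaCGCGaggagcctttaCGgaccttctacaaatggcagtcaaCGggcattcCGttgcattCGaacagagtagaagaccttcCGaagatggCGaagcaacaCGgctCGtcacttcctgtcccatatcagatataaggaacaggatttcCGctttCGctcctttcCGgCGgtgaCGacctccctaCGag
Rpl28 (chr7:4744367-4744596, plus strand): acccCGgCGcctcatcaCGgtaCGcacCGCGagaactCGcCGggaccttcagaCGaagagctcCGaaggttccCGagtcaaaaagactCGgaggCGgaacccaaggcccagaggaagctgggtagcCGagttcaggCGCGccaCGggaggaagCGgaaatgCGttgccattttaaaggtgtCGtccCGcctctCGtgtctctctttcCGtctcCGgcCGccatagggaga
Rpl3l (chr17:24864571-24864800, plus strand): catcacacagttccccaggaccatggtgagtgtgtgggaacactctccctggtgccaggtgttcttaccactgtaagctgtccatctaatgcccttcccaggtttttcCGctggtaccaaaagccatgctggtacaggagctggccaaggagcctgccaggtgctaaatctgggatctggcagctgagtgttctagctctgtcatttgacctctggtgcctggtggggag
Rpl39l (chr16:10170121-10170350, plus strand): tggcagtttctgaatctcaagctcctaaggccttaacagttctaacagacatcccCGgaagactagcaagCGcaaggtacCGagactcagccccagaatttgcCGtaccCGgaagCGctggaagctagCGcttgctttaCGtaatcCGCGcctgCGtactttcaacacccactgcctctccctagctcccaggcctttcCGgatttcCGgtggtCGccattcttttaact
Rps2 (chr17:24856808-24857037, plus strand): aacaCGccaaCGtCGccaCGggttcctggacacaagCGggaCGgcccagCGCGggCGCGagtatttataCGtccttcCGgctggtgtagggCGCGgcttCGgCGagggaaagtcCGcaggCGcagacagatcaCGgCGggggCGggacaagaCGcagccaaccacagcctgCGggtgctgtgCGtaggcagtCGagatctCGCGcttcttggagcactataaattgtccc

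The windows of Rpl22, Rps27 and Rpl28 held 12, 20 and 25 CpGs, and none of their 308, 834 and 843 TAPSβ calls was read as 5mC. The window of Rpl3l held 1 CpG, at which 23 of 31 TAPSβ calls were modified (74.2%, 55.4 to 88.1%). Rpl39l stood between them, with 14 CpGs and a TAPSβ level of 7.49% (4.90 to 10.9%) beside a CAPS level of 6.38% (2.96 to 11.8%). The window of Rps2 held 27 CpGs, and 3 of 1002 TAPSβ calls were modified.

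In the RefSeq table, 54 members had a promoter of 300 bases under their own symbol, with a median of 22 CpGs against 7 for all 27025 symbols. These symbols were not limited to autosomal protein-coding genes with 3 or more exons, and the letter shares below are against the same symbols. Among such genes, the median count of CpGs within 500 bp of the record start was 65 in the members and 49 in all genes. It was 55.5 in 72 mitochondrial ribosomal protein genes and 69 in 63 translation factor genes. The letters CTTTC, a pyrimidine stretch searched on the gene strand from 10 bases before to 30 after the start, were found in 33.3% of the members and 5.69% of all symbols. The letters CCGGAAG, searched on both strands of the 300 bases, were found in 42.6% and 9.93%. These shares describe the letters only, and where a RefSeq start lies a little off the start used in these cells the first window misses the true start.

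Promoters of the cytosolic ribosomal protein genes were nearly free of 5mC. Their median TAPSβ level was 0.423% (70 genes, quartiles 0.232% and 1.04%), against 1.92% for other genes, 0.469% for 69 mitochondrial ribosomal protein genes and 0.378% for 60 translation factor genes. TAPSβ also reads a small share of unmodified cytosines as modified, and this false-positive rate was not subtracted. The rate that the authors measured lies between the lower quartile and the median of the members. Differences between the medians of the members and of the 2 comparison lists are therefore not read as differences in 5mC. Both comparison lists were taken by name, Mrpl or Mrps with a number and Eif or Eef with a number. The list called translation factors thus also holds genes that are not translation factors, Eif2ak1, Eef2k and Eif4ebp1 among them. A level under 5% was found in 65 of 70 members. Among all genes 62.7% were under 5%, and the 2 comparison lists stood at 92.8% and 91.7%, so a low promoter was shared with both lists.

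Large subunit genes had a median promoter TAPSβ level of 0.467% (42 genes) and small subunit genes of 0.329% (28 genes). Both medians are close to the false-positive rate of TAPSβ, and whether the subunits differ in methylation was not tested. The lowest single values were 0.0439% at Rpl22 (1 of 2277 calls), 0.132% at Rps27 (3 of 2265) and 0.133% at Rpl28 (3 of 2263). These values lie below the false-positive rate, so their order is not read as an order of methylation. Rpl22 encodes a large subunit protein that is dispensable for translation in many cells, and Rps27 and Rpl28 encode proteins of the small and large subunit. Of the acidic stalk genes, whose proteins recruit the translation factors, Rplp0 had 0.944% (0.623 to 1.37%), Rplp1 0.186% (0.0605 to 0.434%) and Rplp2 0.415% (0.199 to 0.762%). Rpsa, the small subunit protein also known as a laminin receptor, had 0.232% (0.0932 to 0.477%). Among the stalk genes, the intervals of Rplp0 and Rplp1 did not overlap. The intervals of Rplp1, Rplp2 and Rpsa include the false-positive rate, and that of Rplp0 lies above it. In the bases from 200 before the RefSeq start of Rplp0 to 30 from it, however, 0 of 641 TAPSβ calls were modified, which allows up to 0.574%.

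Rpl3l had the highest promoter level, 36.9% (32.1 to 41.9%), in a window with 13 CpGs, where the median member had 65. Rpl39l had 16.2% (13.7 to 19.0%) with 31 CpGs. Rps27l, the third paralog, had 1.19% (0.818 to 1.66%) with 81 CpGs and so lay among the other members. Rps2, which encodes a protein near the mRNA entry of the small subunit, had 29.4% (24.4 to 34.9%) around the start of its record. That record starts 1947 bp before the RefSeq start, and around the RefSeq start the level was 0.179%. In 7 of the 55 members with a placed start the record began over 300 bp before the RefSeq start, by 7672 bp at Rpl13a and 1385 bp at Rps10.

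5hmC at the promoters was close to the background of the method. The median CAPS level was 0.785% in the members and 1.14% in other genes. It was 0.761% in the mitochondrial ribosomal protein genes and 0.772% in the translation factor genes. Against a fixed background rate of 0.0072, 8 of 70 members were above it (exact binomial test, Benjamini-Hochberg adjusted p under 0.05 over all genes), where 37.4% of all genes were. Of the mitochondrial list 6 of 68 were above it and of the translation factors 13 of 60, so low promoter 5hmC was not particular to the members. By this exact binomial test, the 3 highest were Rpl3l at 5.60% (3.02 to 9.39%, adjusted p = 1.66e-07), Rpl39l at 5.09% (3.22 to 7.61%, adjusted p = 3.03e-11) and Rps2 at 4.41% (2.04 to 8.21%, adjusted p = 0.000101). The same genes had the highest TAPSβ levels. Rps10 had 3.52% (1.94 to 5.83%), again around a record start that lies before the RefSeq start, and around the latter 0.503%. Of the other 4, Rpl13a, Rpl17 and Rpl27 had CAPS levels of 1.75%, 1.45% and 1.34%. The values of Rps2 and Rpl13a are also from windows around record starts far before the RefSeq start. In the 230 bases printed above for the RefSeq start of Rps2, 3 of 621 CAPS calls were modified (0.483%). In PS no promoter of the members was above a background rate of 0.0027 by the same test, 5 of 70 had an unadjusted p under 0.05 (3.20% of all genes), and 0.755% of all genes were called.

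The bodies of these genes also carried little 5mC. Pooled over members, the TAPSβ level was 1.28% at 1 to 1.25 kb after the start, 6.65% at 2 to 2.25 kb and 22.0% at 3 to 3.25 kb. 5hmC was also low near the start and higher further in: the CAPS level of the members was 0.645% in the first 250 bp, 2.00% at 2 to 2.25 kb and 4.56% at 3 to 3.25 kb, where other genes had 3.66% and 3.71% at the latter distances. For 5mC at 2 to 2.25 kb the mitochondrial ribosomal protein genes stood at 57.4%, the translation factor genes at 34.8% and the other genes at 44.6%. Before the start the lists lay closer together: at 1 to 1.25 kb upstream the members had 31.0%, the mitochondrial list 38.4%, the factors 29.1% and the other genes 36.5%, and at 1.75 to 2 kb, where they were closest, 47.1%, 46.2%, 48.2% and 48.3%. Further upstream the members ranged from 51.9% at 2 to 2.25 kb to 32.6% at 3.25 to 3.5 kb, their lowest bin there, where other genes had 50.3% and the mitochondrial list 41.4%, and they were back at 50.2% at 4.75 to 5 kb. Near the start the low stretch extended further on the transcribed side than on the other, and at these distances the windows of short genes reach past the gene end.

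**Figure D1:**
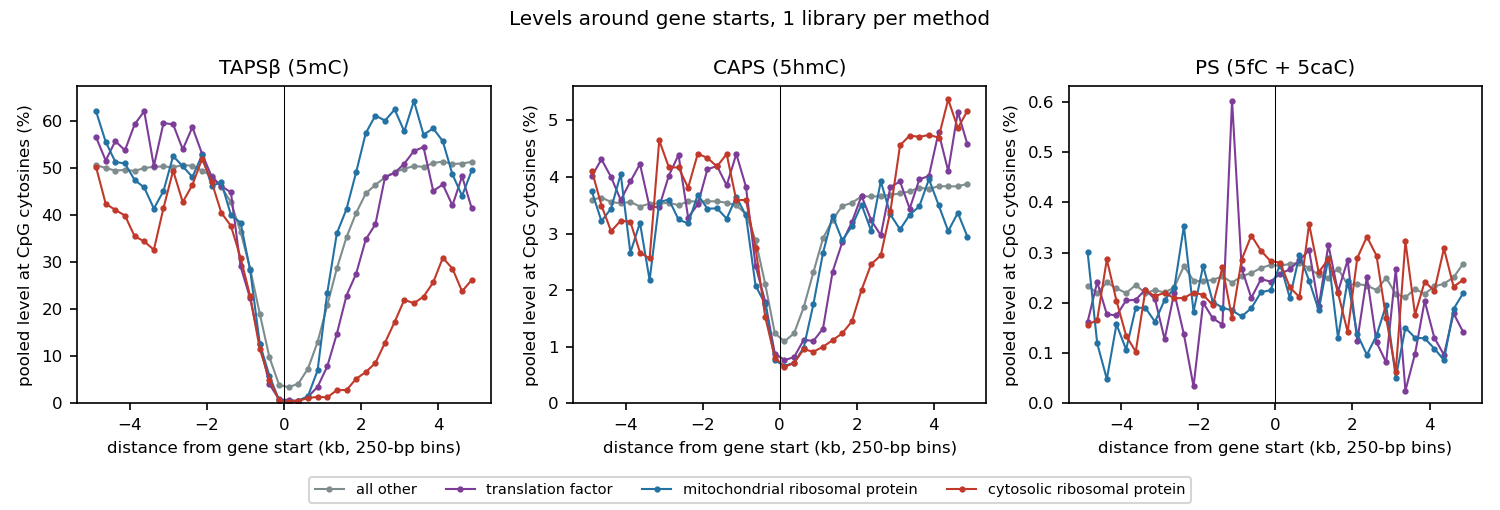
Pooled TAPSβ, CAPS and PS levels (%) in 250-bp bins from 5 kb before to 5 kb after gene starts, for the 75 cytosolic ribosomal protein genes, 72 mitochondrial ribosomal protein genes, 63 translation factor genes and 16924 other genes, 1 library per method. In TAPSβ the red line of the cytosolic genes is at 6.65% at 2 to 2.25 kb after the start, where the line of the other genes is at 44.6%, and from 1 to 1.25 kb upstream these lines are at 31.0% and 36.5%.

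Gene by gene, the median body TAPSβ level was 4.80% in the 75 members, with quartiles of 2.17% and 9.28%, and 58.8% in other genes. A level under 20%, a limit chosen after the values were seen, was found in 66 of 75 members and in 4.30% of all genes. It was also found in 5 of 71 mitochondrial ribosomal protein genes and 6 of 62 translation factor genes. Gene length differed between these lists, with a median record of 3431 bp for the members and 22689 bp for other genes. Among records of 6 kb or less, 63 of 67 members were under 20%, against 20.3% of all such genes, 18.1% of other genes, 5 of 25 mitochondrial ribosomal protein genes and 4 of 10 translation factor genes. With the promoter also under 5%, these were 56 of 59 members, 33.5% of all such genes, 5 of 22 mitochondrial ribosomal protein genes and 4 of 8 translation factor genes. The difference between the lists was not tested, since each method had 1 library and genes are not replicates.

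The members fell into a large low group and a short tail. A body level under 1% was found in 17 genes, 1% to under 10% in 40, 10% to under 20% in 9 and 20% or more in 9. Rps21 had 0 of 188 calls, which allows up to 1.94% by the exact interval, and Rpl36 had 0.0941% (1 of 1063). The stalk genes ranged from 0.758% (0.157 to 2.20%) at Rplp1 over 4.74% (3.84 to 5.79%) at Rplp0 to 6.19% (5.16 to 7.37%) at Rplp2, and Rpsa had 10.6%.

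The tail was led by the tissue paralogs. Rpl39l had 77.1% (73.9 to 80.1%) in the body and 79.2% in the 2 kb after its end, and Rpl3l had 43.0% (41.2 to 44.7%). Next came Rpl24 at 37.2%, Rpl11 at 34.2% and Rpl13a with 859 of 2860 calls, whose records span 42639, 25164 and 10860 bp. The record of Rpl13a starts far before its RefSeq start, so most of the length of its body lies upstream of that start. Exons and introns of the protein-coding transcripts of Rpl11 alone, a gene whose protein binds the p53 regulator Mdm2, stood at 15.6% and 2.61%. The last 4 were Rpl5 at 23.9%, Rps28 at 21.8%, Rps27l at 21.0% (18.3 to 23.9%) and Rpl26 at 20.4%, and just under the limit stood Rpl4 at 19.9%. The median was 5.29% for large subunit and 3.72% for small subunit genes.

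**Figure D2:**
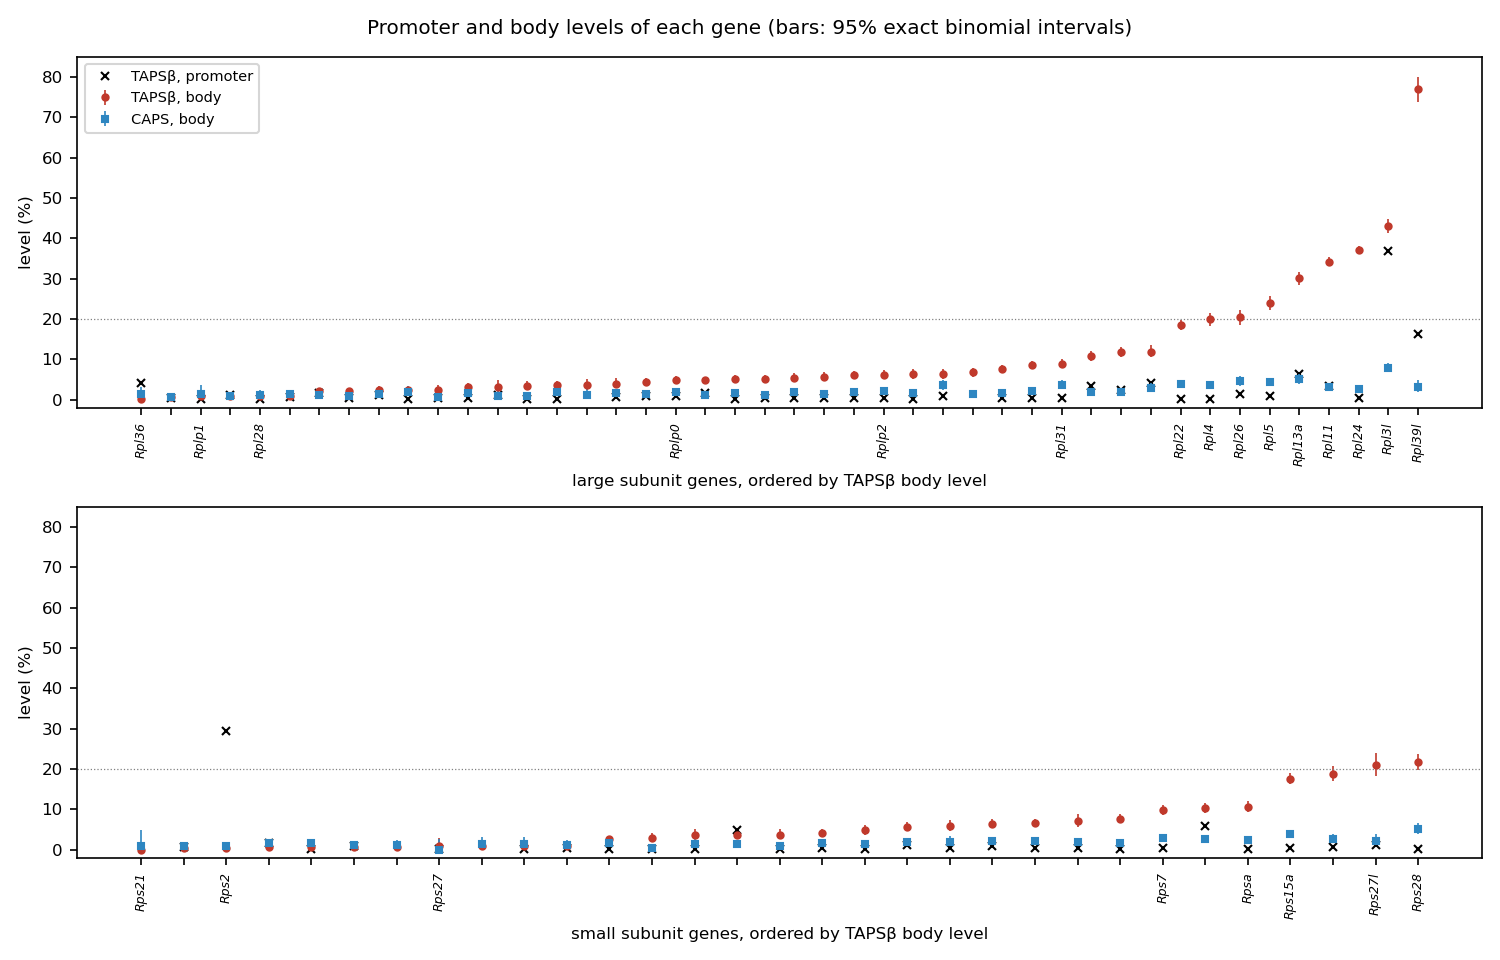
TAPSβ level of the body (red circles) and promoter (black crosses) and CAPS level of the body (blue squares), in %, for each of the 44 large subunit genes (top) and 31 small subunit genes (bottom), ordered by TAPSβ body level; bars are 95% exact binomial intervals, promoters with under 100 calls are left out, only genes named in the text are labelled and the dotted line marks 20%. Most genes lie under 10% and Rpl39l is highest at 77.1%.

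In CAPS the bodies were low too, with a median of 1.61% (quartiles 1.24% and 2.23%) against 3.49% in other genes. The mitochondrial ribosomal protein genes had 3.09% and the translation factor genes 3.82%. Among records of 6 kb or less the medians were 1.54% in the members, 2.95% and 2.37% in these lists and 3.15% in other genes. Among the members Rpl3l had the highest body level, 7.91% (6.78 to 9.16%), while Rpl39l, with the highest 5mC, had 3.11% (1.91 to 4.76%). Cytosine by cytosine, 98 of 16832 tested CpG cytosines of the members were called above background (exact binomial test, at least 5 reads, adjusted p under 0.05), or 0.582%. Over the genome 1.64% were called, and in the promoters, exons and introns of other genes 1.83%. The calls in the members were 8 of 8155 in promoters (0.0981%), 49 of 3501 in exons (1.40%) and 41 of 5176 in introns (0.792%), where other genes had 0.471%, 1.94% and 1.94%. In the same features the mitochondrial ribosomal protein genes had 0.150%, 1.51% and 2.06%, and the translation factor genes 0.208%, 2.55% and 2.39%.

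Past the end of the genes the picture changed. In the 2 kb after the record, the median TAPSβ level was 28.3% for 74 members and 64.8% for other genes, whereas the median CAPS level was 5.21% for the members and 3.51% for other genes. In the same window the mitochondrial ribosomal protein genes had 63.4% in TAPSβ and 3.64% in CAPS, and the translation factor genes 60.5% and 4.55%. Among records of 6 kb or less the medians of members and other genes were 27.1% and 61.0% in TAPSβ and 5.06% and 3.34% in CAPS. The CAPS value after the end lay above that of the body in 69 of 74 members and in 51.1% of all genes, and the TAPSβ value in 68 of 74 and in 66.7%. Among records of 6 kb or less the TAPSβ value did so in 62 of 67 members, 21 of 25 mitochondrial ribosomal protein genes and 8 of 10 translation factor genes, against 64.9% of all such genes. The CAPS value did so in 63 of 67, 14 of 25 and 7 of 10, against 54.0%. From 1 to 3 kb before the start the members had medians of 53.5% in TAPSβ and 4.18% in CAPS, and other genes 61.1% and 3.21%.

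Single genes showed both ends of this pattern. Rpl5, whose protein joins the 5S particle with Rpl11, had 15.1% in CAPS after its end (42 of 279 calls), Rpl31 10.9% (43 of 395) and Rps15a 9.72% (14 of 144), where their bodies had 4.25%, 3.68% and 3.74%. At the other end Rplp0 had 0.811% (9 of 1110) and Rpl4 1.03% (11 of 1063), each below its own body. The low CAPS values went with low 5mC, as TAPSβ levels after the end were 2.00% at Rplp0 and 2.61% at Rpl4 and 48.8% at Rpl5. These genes were chosen after their values were seen. In PS the body median was 0.219% for the members and 0.180% for other genes. After the end it was 0.255%, against 0.103% for other genes, 0.131% for the mitochondrial list and 0 for the translation factors. The background rate, as a fraction of calls, is 0.0027, and all of these PS medians lie below it. Differences between the lists in PS are therefore not read as differences in 5fC and 5caC.

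Exons and introns were then compared within each gene, with introns as the part that processed copies lack. In TAPSβ the median level was 7.18% in exons and 3.06% in introns (72 genes with 100 or more calls in both). The exon value was above the intron value in 61 of 72 members, with a median difference of 3.26 percentage points, and in 54.2% of other genes, 49 of 69 mitochondrial ribosomal protein genes and 39 of 61 translation factor genes. The test (Fisher's exact test, two-sided, adjusted over all genes) called exons higher in 43 of 72 members and lower in 5. Among all genes it called 41.7% higher and 34.7% lower. The mitochondrial ribosomal protein genes (47 of 69 higher, 15 lower) and the translation factors (39 of 61 higher, 15 lower) also had more genes with higher exons, at median exon levels of 57.2% and 53.4%.

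The largest differences with exons higher were at Rpl31, Rpl21, Rps7, Rps15a and Rpl11, which encode proteins of both subunits. Rpl31 exons had 21.7% (18.5 to 25.2%) and its introns 4.01% (3.11 to 5.08%), a difference of 17.7 points (Fisher's exact test, adjusted p = 6.08e-34). For Rpl21, Rps7, Rps15a and Rpl11 the differences were 14.0, 13.7, 13.5 and 13.0 points, with exon levels of 18.3%, 18.9%, 23.1% and 15.6%. Of these 5 genes, Rpl31 had no match by either search for processed copies described further on. The Rpl21 difference was 6.79 points with the exons of all transcripts, noncoding ones included, and 23.7 with 1000 bp left out around the start, and that of Rps15a 8.40 with introns within 500 bp of an exon and 21.2 with 1000 bp left out. With the exons of all transcripts the Rpl11 difference turned to -25.8 points. Exons were lower at Rps28 (11.2% against 25.9%), Rpl35a (2.88% against 9.68%), Rpl3l (39.9% against 45.6%), Rpl18 (4.09% against 7.86%) and Rpl3 (5.25% against 8.43%). The Rps28 difference was -31.1 points with the exons of all transcripts, -26.3 with 1000 bp left out and -2.45, not past the test, with introns within 500 bp of an exon, and the Rpl18 difference -5.96 with the exons of all transcripts. The sign at Rps28, Rpl35a and Rpl18 turned under other choices of exons, start or cytosines, whereas that at Rpl3l and Rpl3 kept its direction under the alternatives tried, Rpl3l falling to -1.93 points, not past the test, with introns within 500 bp of an exon and Rpl3 to -2.02 without cytosines inside another gene record and -2.08 with 1000 bp left out, neither past it. Of the remaining genes always described, Rplp0 had 7.33% in exons and 0.791% in introns, Rplp2 8.02% and 5.12% and Rpsa 12.4% and 8.98%, each past the test, while Rplp1 (1.34% and 0 of 172 calls) and Rpl39l (79.2% and 76.1%) were not past it, and Rps27l had 74 exon calls.

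Levels also differed by position in the gene. The genes differ between positions, since records of 3431 bp, the median, end before the last bins: exon calls came from 54 genes at 0.5 to 1 kb, 39 at 3 to 5 kb and 15 at 5 to 10 kb, and intron calls from 71, 36 and 10. Pooled over members, exons and introns at the same distance from the start had TAPSβ levels of 1.51% and 1.08% at 0.5 to 1 kb, 1.28% and 2.54% at 1 to 1.5 kb, and 3.58% and 3.29% at 1.5 to 2 kb. Further on they were 7.23% and 10.8% at 2 to 3 kb, 24.8% and 23.6% at 3 to 5 kb, and 24.6% and 17.7% at 5 to 10 kb. Exons were above introns at some distances and below them at others. The last exon, at the far end of the gene, had 22.0% (21.4 to 22.7%), the other exons 7.76% (7.52 to 8.01%) and introns 10.7% (10.5 to 10.9%). Pooled values weigh genes by their calls, and the intervals leave out the spread between genes. The median gene had 3.19% in introns (74 genes) and 7.02% in exons (73 genes). Pooled introns had 14.1% in large and 4.64% in small subunit genes. Pooled values by position were not computed without the paralogs.

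**Figure D3:**
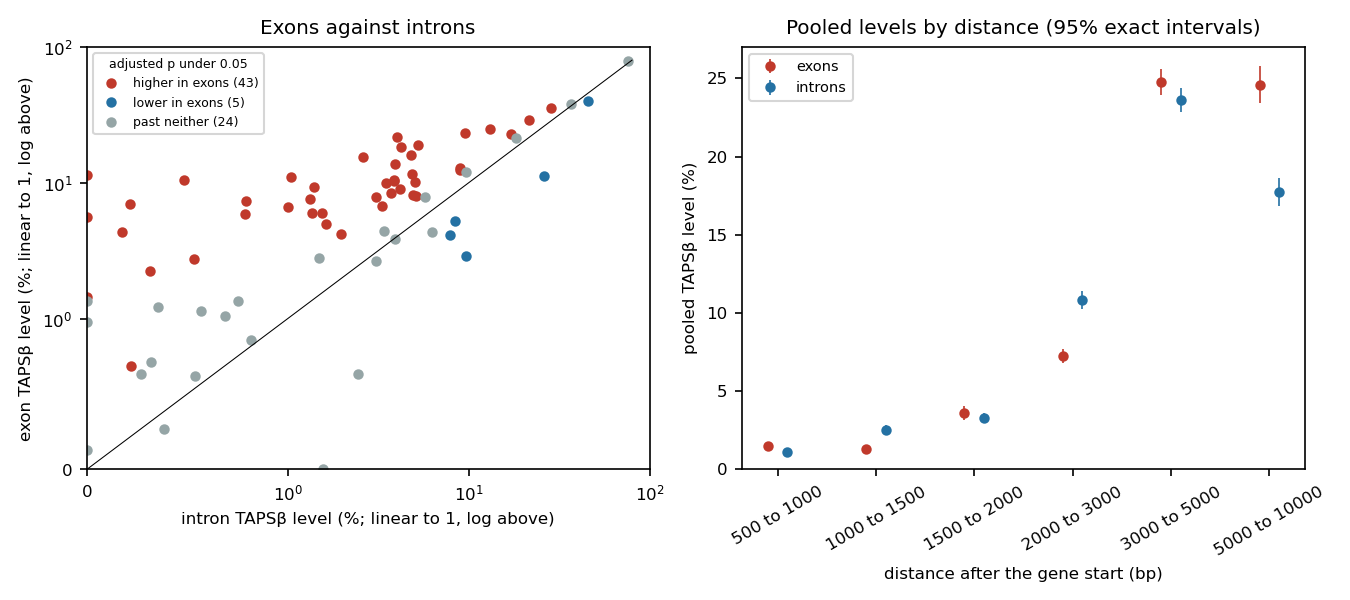
Left, exon against intron TAPSβ level (%, axes linear to 1, log above) of 72 genes, coloured by Fisher's exact test at an adjusted p under 0.05, with the line of equal levels; right, TAPSβ level (%) pooled over the genes with calls in each bin of distance after the gene start (bp; 54 genes in the first exon bin and 15 in the last), exons in red and introns in blue, with 95% exact binomial intervals. On the left 43 genes are higher and 5 lower in exons, and on the right both features are low near the start and reach 24.8% and 23.6% at 3 to 5 kb.

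In CAPS the medians were 2.11% in exons and 1.41% in introns over 69 genes. The exon value was above the intron value in 54 of 69 members, 52.9% of other genes, 35 of 68 mitochondrial ribosomal protein genes and 37 of 61 translation factor genes. By Fisher's exact test exons were called higher in 5 and lower in 0, where all genes were called higher in 10% and lower in 6.47%. Without adjustment 12 of 69 members (17.4%) and 28.6% of all genes had a p under 0.05. The 5 genes, named after their values were seen, were Rpl19 (4.02% against 1.51%), Rpl22 (6.51% against 3.22%), Rpl31 (6.42% against 2.58%), Rps15a (4.73% against 2.14%) and Rps25 (4.84% against 0.432%). At cytosines with at least 10 reads Fisher's exact test called none of 63. In PS neither direction was called in any of 70 genes by Fisher's exact test, none had an unadjusted p under 0.05, and 0.758% and 0.286% of all genes were called higher and lower. Among the highest exon PS levels were 0.964% at Rpl26 (4 of 415 calls, 0.263 to 2.45%) and 0.882% at Rpl17 (3 of 340, 0.182 to 2.56%). The interval of Rpl17 included the genome level of 0.246%, and that of Rpl26 began just above it. Both intervals included the PS background rate, a fraction of 0.0027.

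The processed copies of these genes were counted by aligning the spliced transcript with the most exons to the genome. At 90% identity over at least 50% of the transcript there were 757 matches outside the gene itself, from 55 of the 75 genes, with 10 or more for 31 genes. The same search found 31 for the mitochondrial ribosomal protein genes and 42 for the translation factors. Rpl7a, a large subunit gene, had 85, Rpl17 56, Rps2 52, Rpl29 47 and Rpl23a 36, and the median gene had 6. A search with any protein-coding transcript of the gene found 930 matches from 63 genes, with a median of 9, so that the number of copies depends on the transcript: Rpl21 had 80 and Rps15a 13 by this search and none by the first. The exons of the 5 most copied genes of the first search ranged from 0.687% to 5.98% in TAPSβ. Rpl7a had TAPSβ levels of 5.98% in exons and 1.37% in introns, Rpl17 4.31% and 0.175%, Rpl29 4.97% and 1.63%, Rpl23a 3.88% and 3.91% and Rps2 0.687% and 0.220%. The window left out at Rps2 lies around its record start, far before its RefSeq start, so bases around the latter were not left out. Of the 20 genes without a match in the first search, 12 had none in the second either, Rpl31, Rpl39l and Rpl3l among them. Both searches miss copies that cover under 50% of each transcript searched, so a gene without a match may still have copies. On the autosomes and X, the matches of the first search lay at 754 separate loci, of which 346 overlapped annotated pseudogenes, and 82 matches were at least 99% identical.

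The coding sequence of Rpl7a shows how such copies differ from the gene. The 60 bases below come from its exon 2, the coding stretch with the most CpGs, with copies of the highest, middle and lowest identity among 51 that align to it without gaps. These were taken from 78 of the 85 copies, without those on chromosomes 18 and X. Capitals mark the 5 positions that are CpG in the gene.
Rpl7a (chr2:26766560-26766619, plus strand): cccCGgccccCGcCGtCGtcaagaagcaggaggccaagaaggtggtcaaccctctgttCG
copy on chromosome 9 (chr9:84317628-84317687, plus strand): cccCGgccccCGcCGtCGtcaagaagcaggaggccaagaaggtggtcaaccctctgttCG
copy on chromosome 5 (chr5:136687582-136687641, minus strand): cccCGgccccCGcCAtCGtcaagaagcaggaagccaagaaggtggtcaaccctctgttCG
copy on chromosome 11 (chr11:60944743-60944802, minus strand): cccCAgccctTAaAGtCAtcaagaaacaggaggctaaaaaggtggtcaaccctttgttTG

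The gene had 0 of 145 TAPSβ calls modified in this stretch, which allows up to 2.51%. The copy on chromosome 9 was letter for letter the same over the 60 bases and had no call in any library. The copy on chromosome 5 differed at 2 bases, kept 4 of the 5 CpGs and had 55 of 72 TAPSβ calls modified (76.4%, 64.9 to 85.6%). The copy on chromosome 11 differed at 12 bases and kept none of the CpGs. Over the 51 copies 65.5% of these CpG positions were kept, and their calls in the stretch were modified in 1856 of 2554 cases (72.7%).

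Over all 754 copy loci the TAPSβ level was 57.3% (57.1 to 57.5%), the genome level being 57.5%, and the median locus had 69.0% (683 loci with 50 or more calls), with 34 loci under 20%. CAPS and PS levels of the loci were 3.95% and 0.369%. Identity classes were read over 693 of these loci, those on autosomes. Coverage was lower the more alike the copy was: at 90 to under 95% identity the copies had 10.6 reads per CpG cytosine in TAPSβ, at 95 to under 99% 8.83 and at 99% or more 7.11, while the 500 bp on each side had 12.4, 11.6 and 11.7. At 99% or more 80.7% of the cytosines of the copies were listed, against 96.7% beside them. The PS level of the copies was 0.199%, 0.429% and 0.842% over the same classes and their TAPSβ level 62.2%, 53.7% and 49.0%. In the 500 bp on each side the PS level was 0.374%, 0.232% and 0.411% and the TAPSβ level 62.9%, 59.7% and 64.0%, so that in the first class PS was higher beside the copies than in them, and in the last lower. Of the 3 classes, the copies most like the genes had the fewest reads, the lowest 5mC level and the highest PS level.

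The exons of the genes themselves were covered about as deeply as their introns. Reads per CpG cytosine in exons over those in introns had medians of 1.02 in TAPSβ, 0.986 in CAPS and 1.03 in PS (71 genes with 10 or more cytosines in both). A ratio under 0.8 was found in 2 of 71 members in TAPSβ, where 9.27% of all genes were under it, in 10 in CAPS (7.99% of all genes) and in 3 in PS (3.23%). In all 3 libraries together it was found in 0 of 71 members and 1.77% of all genes. The 2 genes in TAPSβ were Rpl39l at 0.673, with 1.13 in CAPS and 1.34 in PS and no match in the copy searches, and Rpl29 at 0.793, with 0.629 and 0.866 and 47 copies. Rps13 (0.857) and Rps18 (0.877) were also among the 5 lowest. Among the 3 highest were Rps9 at 1.39 and Rps3a at 1.31. By number of copies, the median TAPSβ ratio was 1.01 for 20 genes with none, 1.07 for 21 with 1 to 9 and 1.01 for 31 with 10 or more, and by the search with any transcript 0.985, 1.06 and 1.01 for 12, 25 and 35 genes. The CAPS medians over these classes were 0.938, 0.986 and 1.03 by the first search and 0.926, 0.984 and 1.02 by the second. The class sizes count the 72 genes compared for TAPSβ levels, whereas a ratio was available for 71.

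**Figure D4:**
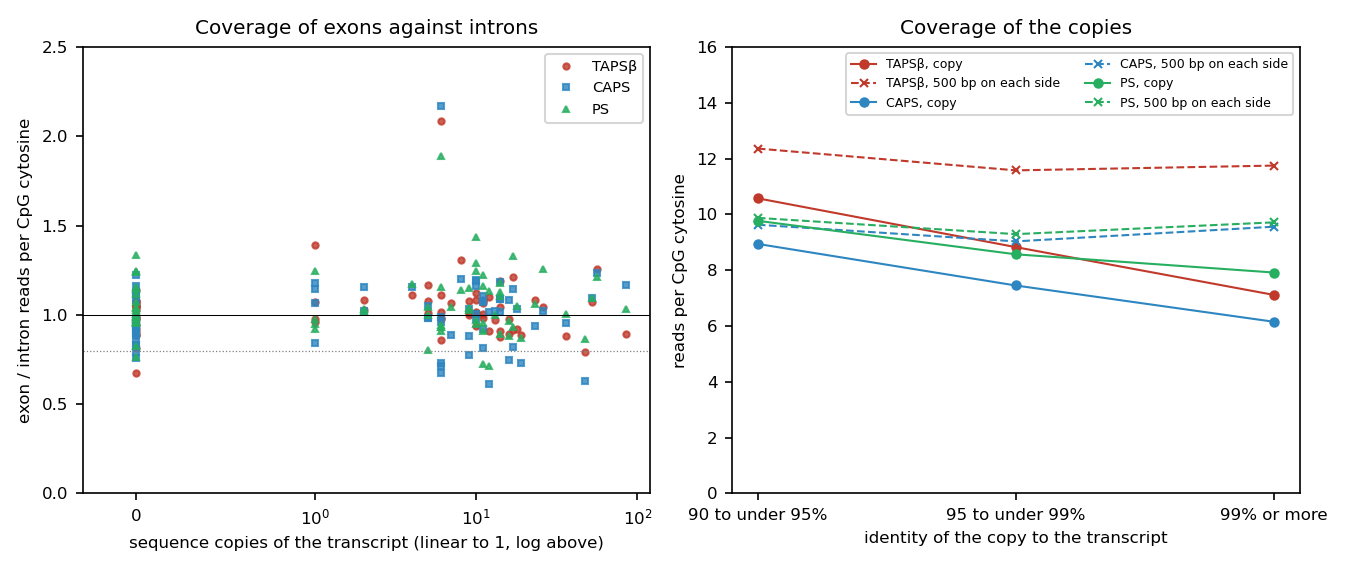
Left, ratio of reads per CpG cytosine in exons to introns for each gene and method against the number of sequence copies of its transcript with the most exons at 90% identity (axis linear to 1, log above), with lines at 1 and 0.8; right, reads per CpG cytosine in the copies (solid) and in 500 bp on each side (dashed) by identity class. Gene ratios lie around 1 at every number of copies, while reads over the copies go from 10.6 to 7.11 in TAPSβ with identity.

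Levels at exon cytosines were lower where copies were present, whereas the copies themselves were mostly methylated. By the first search, cytosines in exons of the transcript used in it with a copy at least 99% identical within 50 nt had a TAPSβ level of 5.81% (5.53 to 6.10%) at 17.8 reads, and those with no copy 19.4% (18.9 to 19.9%) at 15.4 reads. The latter include exons of genes with copies by the second search, such as Rpl21 and Rps15a. In the 12 genes without a match by either search, which may still have copies that cover less of the transcript, the level was 15.9% (15.2 to 16.6%) at 16.1 reads. Without the paralogs Rpl3l and Rpl39l it was 803 of 8010 calls (9.38 to 10.7%) in the other 10 genes, and that of the cytosines with no copy by the first search 17.6% (17.1 to 18.1%). These are different genes and positions, so the part of the copies in this difference was not tested. At the exon CpG cytosines, bases of the copies that were neither unchanged nor the base that these methods read as modified were left out. Of the rest, 13.0% were the base read as modified. Exon cytosines with 5 or more such copies had a PS level of 0.228% (0.0740 to 0.531%), and those with copies but none of this kind 0.220% (0.133 to 0.343%), which overlap widely. Median exon minus intron differences in TAPSβ were 3.74, 2.40 and 3.33 points for genes with 0, 1 to 9 and 10 or more copies by the first search and 3.33, 2.40 and 4.14 by the second.

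The genes were also often hosts of snoRNAs, which guide the modification of ribosomal RNA. They hosted 56 snoRNAs in 28 of 75 genes (37.3%), whereas 1.42% of all genes, 9 of 63 translation factor genes and 0 of 72 mitochondrial ribosomal protein genes were hosts. Fau, a ribosomal protein gene outside the rule whose product is Rps30 fused to a ubiquitin-like protein, had a TAPSβ level of 8.27% in the body and no call in its promoter. Its body value lay within the range of the members.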

How the data were processed

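TAPSβ, CAPS and PS were applied to gDNA of E14 mESCs, 1 library each. The authors trimmed reads with Trim Galore (v0.3.1), mapped them to mm9 with BWA (v0.7.12), removed duplicates with Picard (v2.3.0), left out reads of mapping quality under 10 and called bases with asTair. They also excluded sites in regions prone to mapping artifacts and at known single nucleotide variants of E14. Whether sites missing from the deposited counts were lost to these filters is not known. Per strand and CpG cytosine the authors deposited counts of modified and unmodified reads, not normalized, and their fraction, which matched the counts within 0.0005. Counts were summed over features of GENCODE M1 genes. Low-depth features (under 100 calls) were not read. Fisher's exact and binomial tests (scipy 1.17.1) were adjusted by Benjamini-Hochberg over all genes and tested on simulated data. Copies were found with blastn 2.17.0. Members, lists and tests were chosen with earlier results of these data known. Genes named were the highest and lowest in promoter TAPSβ (3 each), promoter CAPS and exon PS (3 highest), exon-intron difference past the test (5 each way) and coverage ratio (5 lowest, 3 highest), with Rplp0, Rplp1, Rplp2, Rpsa and the paralogs. Other names, the 20% limit for the body and the 6 kb limit for records were chosen after values were seen. Promoter and gene-record alternatives are given at the end. Some genes that the rule names are not reported here, and they stay in every count and median.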

Additional observations from a re-analysis of the deposited data

How the results depend on the processing

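No paired analysis was possible because each method had 1 library. The tests therefore cover counting error only, and a gene-level difference could differ between cultures. Exons were called higher in TAPSβ in 29 to 43 members over the alternatives, and promoters were under 5% in 50 to 66, with 29 and 50 of 52 genes tested at RefSeq starts and 61 of 75 promoters within 1000 bp of the start. The RefSeq starts, other limits for the body and matches to any transcript were chosen after seeing the data.

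Members lower in exons in TAPSβ (5) became 3 with RefSeq starts or with introns within 500 bp of an exon, 9 with exons of all transcripts and 2 without cytosines inside another gene record. Members higher in exons in CAPS (5) became 0 at 10 or more reads, 2 with 1000 bp left out around the start and 3 with near introns, and those lower (0) became 1 at 5 or more reads, 2 with 1000 bp left out and 2 with exons of all transcripts. Promoters above the CAPS background (8) became 4 with RefSeq starts, 3 within 250 bp and 28 within 1000 bp of the start. Coverage ratios under the limit in TAPSβ (2) became 4 with 1000 bp left out, 1 with near introns, 5 with exons of all transcripts and 1 at a limit of 0.7, in CAPS (10) 6 with 1000 bp left out and 3 at 0.7, and in PS (3) 0 at 0.7. CAPS sites called (98) became 59 at 10 or more reads, of fewer tested. Copies (757) became 389 at 95% and 1400 at 80% identity, and 930 with any transcript. Members with a body under 20% (66 of 75) were 57 at a limit of 10% and 70 at 30%, and were not recounted with RefSeq starts.

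Among single genes, the exon minus intron TAPSβ difference reversed with exons of all transcripts at Rpl11 (-25.8 points) and Rpl35a (8.92), without cytosines inside another gene record at Rps28 (0.225) and Rpl18 (0.228), and at Rpl18 with RefSeq starts (2.24) and with 1000 bp left out (1.07). The cause was not tested. Median depths of 13, 9 and 9 reads limit single cytosines.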
